A study of Homo sapiens with 4 samples.

Results

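The cytosolic chaperonin TRiC, also called CCT, was examined through the genes of its 8 subunits, TCP1, CCT2, CCT3, CCT4, CCT5, CCT6A, CCT7 and CCT8. The members were taken by symbol from the count table, where all 8 were found among 20263 gene IDs. RNA was sequenced from HCT116, a human colorectal carcinoma cell line given as WT in the labels. Cells were treated for 24 h with HJ-4, a piperine derivative, at 32 µM, or with the vehicle, 0.1% DMSO. The study's methods also give 32 µM, while the caption of its transcriptome figure gives a lower dose. There were 2 HJ-4 libraries and 2 DMSO libraries, with 29769568 to 34359889 counts each. Same-condition libraries were further apart than counting noise allows, and the study's methods speak of biological triplicates. The labels of the libraries used here name no separate cultures, and if they share one, the p-values measure technical spread. In bulk RNA, fewer cells of a type and less RNA per cell cannot be told apart. The comparison asks whether the transcripts of the chaperonin and of the proteins that work with it changed in cells exposed to HJ-4.

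TRiC is a pair of stacked rings, each built from one copy of every subunit, which closes over an unfolded protein when ATP is hydrolysed. It is best known for folding newly made tubulin and actin, and it also folds many proteins with WD40 repeats. Each subunit is encoded by its own gene, the genes lie on several chromosomes, and a complete ring needs the product of each of them. In mouse, heat shock factors are known to activate transcription of the subunit genes.

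The subunit transcripts showed small fold changes, none of which passed the test. Of the 8 subunits, 6 had a positive and 2 a negative log2 fold change (HJ-4 over DMSO), between -0.12 for CCT3 and 0.32 for CCT5, with a median of 0.08 against 0.00 over all 14044 genes tested. No subunit passed an adjusted p of 0.05 in edgeR's quasi-likelihood test, in DESeq2 or in limma-voom, and none had an unadjusted p under 0.05 in any of these. Over all genes tested, 0.0498% passed the adjusted threshold in edgeR, while 7.93% had an unadjusted p under 0.05 with a positive fold change and 7.93% with a negative one. For 2 subunits, CCT5 and CCT6A, the HJ-4 and DMSO libraries were separate with HJ-4 higher, and for 2, CCT3 and CCT7, with HJ-4 lower, whereas 25.2% of all genes tested were separate with HJ-4 higher and 25.6% with HJ-4 lower. Levels are given as CPM, read counts scaled to a common library size by TMM (trimmed mean of M values), which do not account for transcript length.

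**Figure D1:**
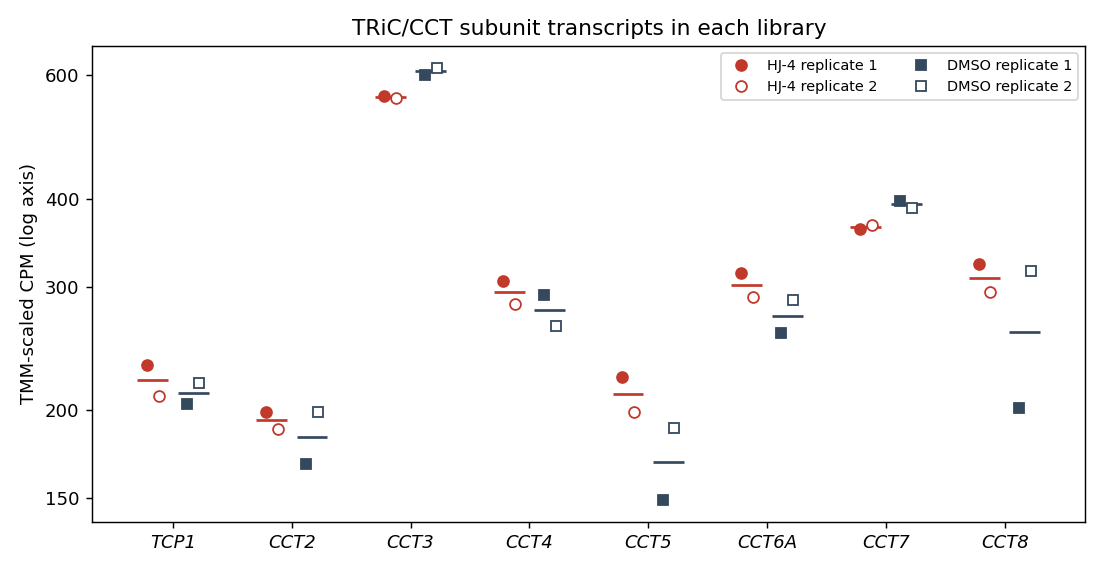
TMM-scaled CPM (log axis) of the 8 TRiC/CCT subunit genes in each library, HJ-4 as circles and DMSO as squares, filled for replicate 1 and open for replicate 2, with horizontal lines at the group means. CCT5 and CCT6A lie higher and CCT3 and CCT7 lower in both HJ-4 libraries, and CCT8 spreads between 201 and 315 CPM in the DMSO libraries.

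Promoter sequence was available for 7 of the 8 subunits, in 9 RefSeq windows of 300 bases (GRCh38.p14), CCT6A being without an entry. The core letters of a heat shock element, GAANNTTC (which read the same on both strands), were found in the windows of 2 of the 7, TCP1 and CCT2, and in 6.77% of all 35116 windows. They are shown beside those of HSPA1A, HSPA1B and DNAJB1, heat shock genes with lower levels in the HJ-4 libraries (given with the heat shock genes), because these sets of genes are known to share heat shock factors as activators. The TCP1 site lies 231 bases before the start (chr6:159789816-159789843, minus strand), that of CCT2 lies 89 bases before the second of its RefSeq starts (chr12:69585790-69585817, plus strand). The HSPA1A site (chr6:31815427-31815454, plus strand), the HSPA1B site (chr6:31827623-31827650, plus strand) and one of several DNAJB1 sites (chr19:14518457-14518484, minus strand) lie 106, 105 and 77 bases before the start. The CCT2 site and the printed DNAJB1 site lie inside the annotated spans of their genes (GENCODE version 44). Those of TCP1, HSPA1A and HSPA1B lie outside. Each run is written 5′ to 3′ on the strand of its gene, with the core letters in capitals.
TCP1: cgtttgaggcGAAGGTTCaacctcttcc
CCT2: ccggagcgaaGAAATTTCtagtgtggga
HSPA1A: gaaaaccctgGAATATTCccgacctggc
HSPA1B: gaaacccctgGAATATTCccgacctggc
DNAJB1: gggcggggcgGAAGGTTCtggagggggc
The TCP1 site and the DNAJB1 site printed here hold the same core in different surroundings, while the other DNAJB1 sites, not printed, hold a different core. The HSPA1A and HSPA1B sites share theirs. A TATA box (TATAAA, either strand) was found in the windows of HSPA1A and HSPA1B and in none of the 9 windows of the 7 subunits, against 11.5% of all windows. A CCAAT box (CCAAT, either strand) was found for TCP1, CCT2, CCT3 and CCT8, and in 34.6% of all windows. Here and for the heat shock element, subunits were counted by gene and the background by window, so the shares are not directly comparable. The letters TGATGNAA, which ATF4 can bind, and the E-box CACGTG, which MYC can bind, were in none of the subunit windows, against 3.62% and 7.26% of all windows. A match of letters is a description and does not show binding.

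CCT5 had the largest fold change of the subunits. It encodes the epsilon subunit, which can assemble into rings of its own in vitro and is mutated in a hereditary sensory neuropathy. Its level was 223 and 199 CPM in the HJ-4 libraries, against 149 and 189 CPM in the DMSO libraries. The groups did not overlap, but the HJ-4 library nearest to DMSO was closer to DMSO replicate 2 than the DMSO libraries were to each other. The log2 fold change was 0.32 (95% confidence interval -0.04 to 0.68, standard error 0.14, adjusted p = 0.35 from edgeR). It was 0.16 without DMSO replicate 1 and 0.50 without DMSO replicate 2, and without DMSO replicate 2 the unadjusted p was 0.0067 and the adjusted p 0.12 in edgeR.

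CCT6A encodes the zeta subunit that most tissues use. Its level was 314 and 289.9 CPM with HJ-4 and 257 and 287 CPM in the DMSO libraries. The groups were separate, with the lower HJ-4 library just above the higher DMSO library. The log2 fold change was 0.15 (95% confidence interval -0.09 to 0.39, adjusted p = 0.48 from edgeR). CCT6B, the testis form of the zeta subunit, was near the limit of detection with 1.26 and 1.53 CPM in the HJ-4 libraries against 1.02 and 1.63 CPM in the DMSO libraries, far below CCT6A.

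CCT3 and CCT7, the gamma and eta subunits, were the members with negative fold changes. CCT3 was at 560.3 and 557 CPM with HJ-4 and at 599.7 and 615 CPM with DMSO. Its log2 fold change was -0.12 (95% confidence interval -0.30 to 0.06, adjusted p = 0.46 from edgeR). CCT7 was at 362 and 367 CPM with HJ-4 and at 398 and 388 CPM with DMSO, a log2 fold change of -0.11 (95% confidence interval -0.29 to 0.08, adjusted p = 0.51 from edgeR). For both genes the libraries of a condition lay close together and the groups were separate. The sign of the fold change was the same under all 11 alternatives in scaling, filter, test and libraries. The same held for the signs of TCP1, CCT4, CCT5 and CCT6A.

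CCT8, the theta subunit, showed the widest spread. It had 323 and 295 CPM in the HJ-4 libraries, against 201 and 315 CPM in the DMSO libraries. Both HJ-4 libraries lay near DMSO replicate 2, and DMSO replicate 1 stood apart. The log2 fold change was 0.26 (95% confidence interval -0.31 to 0.82, adjusted p = 0.60 from edgeR), with values of -0.03 without DMSO replicate 1 and 0.62 without DMSO replicate 2 (adjusted p = 0.087). The DMSO libraries differed by 0.65 on the log2 scale for CCT8, and 6.18% of all genes tested, those with low counts included, differed between them by at least as much. The median absolute difference between the DMSO libraries was 0.13 over 631 genes at the levels of the subunits, against 0.15 over all genes tested.

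TCP1, the alpha subunit and founding member of the family, CCT2, the beta subunit, and CCT4, the delta subunit, had overlapping groups. TCP1 was at 232 and 209.7 CPM with HJ-4 and at 204 and 219 CPM with DMSO (log2 fold change 0.06, 95% confidence interval -0.17 to 0.30). CCT2, whose product has also been described as a receptor for the autophagy of protein aggregates, was at 199 and 188 CPM with HJ-4 and at 168 and 199 CPM with DMSO (log2 fold change 0.08, 95% confidence interval -0.20 to 0.36). CCT4 was at 306 and 283 CPM with HJ-4 and at 292 and 264 CPM with DMSO (log2 fold change 0.08, 95% confidence interval -0.15 to 0.32). In each of these, at least one HJ-4 library lay within the range of the DMSO libraries. The adjusted p in edgeR was 0.76 for TCP1, 0.75 for CCT2 and 0.68 for CCT4.

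Across the 8 subunits the confidence bounds of the fold change (HJ-4 over DMSO) ran from 0.807 to 1.77. Only for CCT5 and CCT8 did the interval reach past a fold of 1.5. Counts of single subunits were between 4679 and 19085 per library. For 6 of the 8 subunits the DMSO libraries lay further apart on the log2 scale than the fitted fold change of HJ-4 over DMSO. Over the 631 genes at the levels of the subunits, the median absolute DMSO difference was 0.129. Their median absolute log2 fold change was 0.122. Between libraries of a condition, HJ-4 replicate 1 was above HJ-4 replicate 2 for 7 of 8, CCT7 being the exception, and DMSO replicate 2 was above DMSO replicate 1 for 6 of 8, CCT4 and CCT7 being the exceptions.

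**Figure D2:**
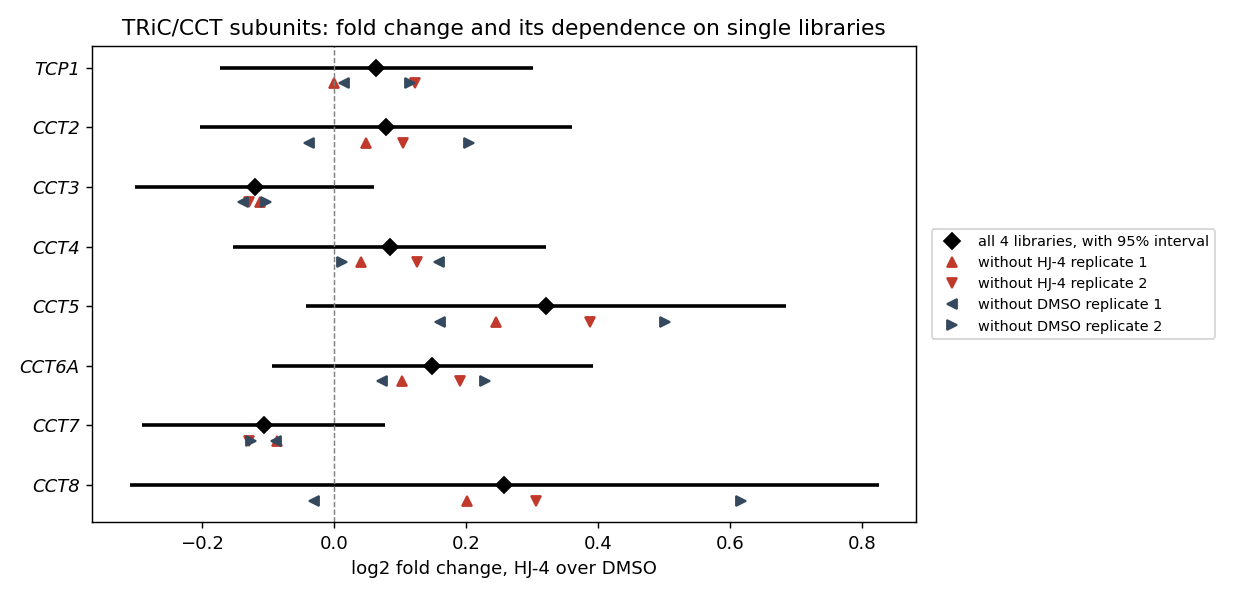
Log2 fold change (HJ-4 over DMSO) of each TRiC/CCT subunit, with diamonds and 95% confidence intervals for all 4 libraries and triangles for fits that leave out one library. All intervals cross 0, and CCT2 and CCT8 change sign without DMSO replicate 1.

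Levels of different subunits can be compared only per length. With the union of all annotated exons as length, CCT3 was the most abundant subunit transcript in every library, at 145 and 144 CPM per kilobase with HJ-4 and at 155 and 159 with DMSO. CCT5 was the least abundant in every library, at 39.6 and 35.3 CPM per kilobase with HJ-4 and at 26.4 and 33.5 with DMSO. The most abundant subunit exceeded the least abundant by 3.66 and 4.09 times in the HJ-4 libraries, against 5.87 and 4.75 times in the DMSO libraries. By mean level the order was CCT3, CCT4, CCT7, CCT8, CCT6A, CCT2, TCP1 and CCT5. CCT6A and CCT8 changed places between the DMSO libraries, and TCP1 and CCT2 between libraries of each condition. These neighbours therefore did not differ beyond their spread. CCT4 was above CCT7 in both HJ-4 libraries (113 and 105 CPM per kilobase against 101 and 102). It was below CCT7 in both DMSO libraries (108 and 97.6 against 111 and 108). Whether this order differs with the condition was not tested. With the length of the canonical transcript CCT3 and CCT5 kept the first and last places, while CCT7 moved to rank 2, CCT8 to rank 3 and CCT4 to rank 4. These are levels of messenger RNA per length, and no protein was measured.

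**Figure D3:**
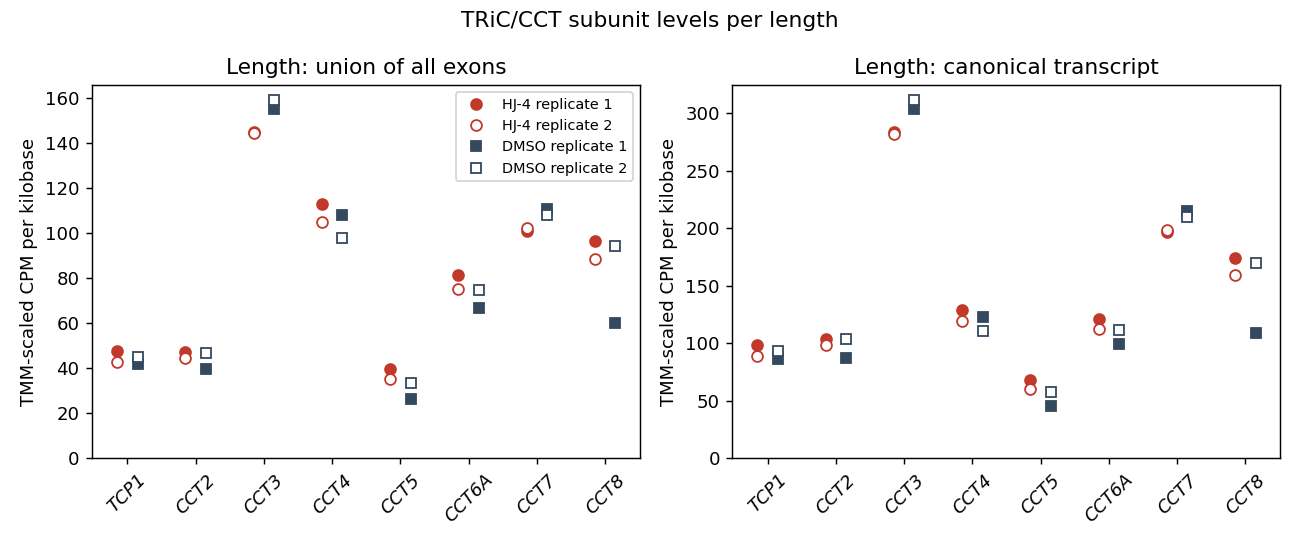
TMM-scaled CPM per kilobase (linear axis from 0) of the 8 subunits in each library, with the union of all exons (left) or the canonical transcript (right) as length. CCT3 is the highest and CCT5 the lowest in every library with either length, and the middle of the order depends on the length used.

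The subunit genes are scattered over GRCh38 (spans from GENCODE version 44), with CCT3 at chr1:156308968-156367873, CCT4 at chr2:61868085-61888671, CCT7 at chr2:73233420-73253021, CCT5 at chr5:10249929-10266389, TCP1 at chr6:159778498-159789703, CCT6A at chr7:56051685-56063989, CCT2 at chr12:69585426-69601570 and CCT8 at chr21:29055805-29073797. TCP1 and ACAT2, an acetyl-CoA acetyltransferase gene, lie tail to tail on opposite strands and share 615 bases of their spans. ACAT2 had 80.4 and 77.2 CPM with HJ-4 and 39.5 and 39.2 CPM in the DMSO libraries, with separate groups (log2 fold change 1.00 with a standard error of 0.08, adjusted p = 0.063 from edgeR). No source used here gives the strand setting of the counting. The part of ACAT2 reads in the TCP1 counts was not tested. TSACC, which overlaps CCT3 on the other strand, was at 0.66 to 0.93 CPM, far below CCT3. GENCODE also lists 14 pseudogenes named after these subunits, none of which is in the count table, and reads that match both a subunit and such a copy make the subunit counts uncertain.

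Alpha- and beta-tubulins are the main substrates of TRiC, and their transcripts were compared with those of the subunits. The 8 subunits together were at 2519 and 2389 CPM with HJ-4 and at 2268 and 2475 CPM with DMSO, and the groups overlapped. This was 0.250% and 0.236% of all counts with HJ-4 and 0.229% and 0.250% with DMSO. The 10 listed alpha- and beta-tubulin genes together were at 2515 and 2623 CPM with HJ-4, against 4164 and 3616 CPM with DMSO, without overlap. The ratio of summed tubulin to summed subunit CPM was 0.998 and 1.10 in the HJ-4 libraries and 1.84 and 1.46 in the DMSO libraries, a ratio of CPM that takes no account of length. All 10 tubulin genes had negative fold changes with separate groups, with a median log2 fold change of -0.46, and 8 had an unadjusted p under 0.05, against 25.6% (separate) and 7.93% (unadjusted p) of all genes tested. None of the 10 passed the adjusted threshold in edgeR.

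**Figure D4:**
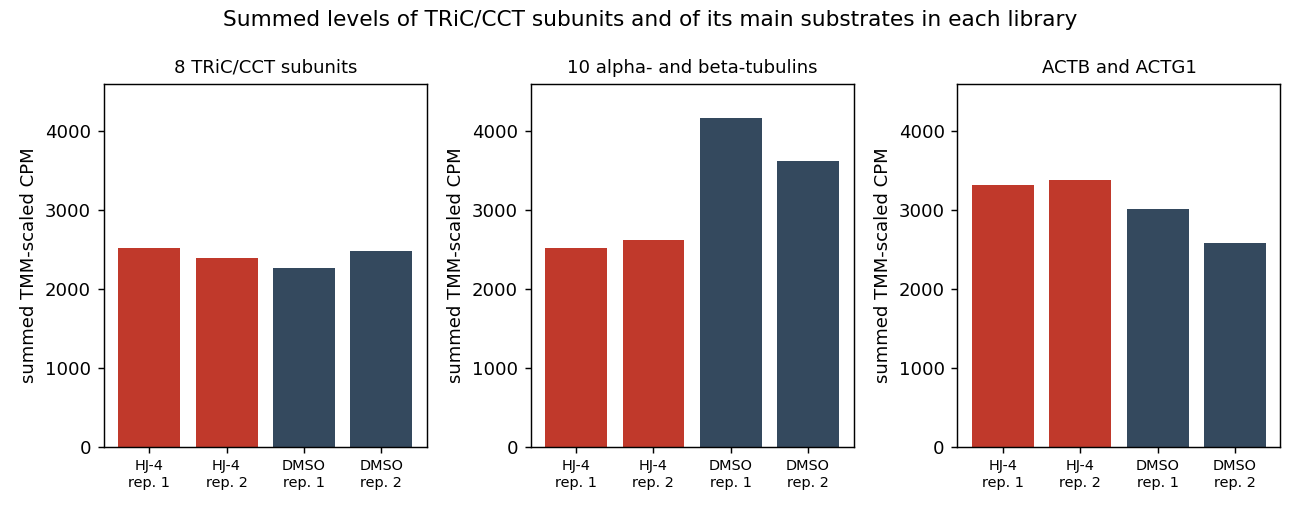
Summed TMM-scaled CPM in each library (bars from 0, HJ-4 in red and DMSO in dark blue) of the 8 TRiC/CCT subunits, of 10 alpha- and beta-tubulin genes and of ACTB with ACTG1. The subunit sums overlap between the conditions, the tubulin sums are lower with HJ-4 (2515 and 2623 against 4164 and 3616) and the actin sums are higher.

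TUBB4B, a beta-tubulin expressed in most tissues, was at 477 and 524 CPM with HJ-4, against 964 and 869.7 CPM with DMSO (log2 fold change -0.87 with a standard error of 0.09, adjusted p = 0.079 from edgeR). TUBA1A, an alpha-tubulin that may share reads with its close copies TUBA1B and TUBA1C, was at 96.7 and 108 CPM with HJ-4 and at 197 and 177 CPM with DMSO (log2 fold change -0.87, adjusted p = 0.087 from edgeR). TUBG1, the gamma-tubulin of microtubule nucleation and also folded by TRiC, was at 68.7 and 71.2 CPM with HJ-4 and at 111 and 103 CPM with DMSO (log2 fold change -0.62, adjusted p = 0.11 from edgeR). These 3 passed in DESeq2 (adjusted p = 1.6e-11, 1.7e-09 and 3.9e-06) and not in edgeR. DESeq2 also called TUBA1C, TUBB and TUBB6 (named after their values were seen), so that 5 of the 10 alpha- and beta-tubulin genes passed there. Over all 14044 genes tested, DESeq2 called 570 and edgeR 7 on the same libraries. The actin genes lay on the other side of 0. ACTB, the beta-actin gene, was at 1588 and 1592 CPM with HJ-4 and at 1402 and 1214 CPM with DMSO (log2 fold change 0.28, adjusted p = 0.28 from edgeR), and ACTG1 at 1729 and 1791 CPM with HJ-4 and at 1606 and 1372 CPM with DMSO (log2 fold change 0.24, adjusted p = 0.33 from edgeR). Both actin genes were chosen after their values were seen.

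The genes that hand substrates to TRiC or take them from it showed small fold changes, with PFDN2 the furthest from 0. Of the 6 subunits of prefoldin, which carries nascent actin and tubulin to the chaperonin, 4 had a positive log2 fold change and the median was 0.06. PFDN2 was at 132 and 125 CPM with HJ-4, against 100.5 and 94.3 CPM with DMSO, with separate groups (log2 fold change 0.40 with a standard error of 0.09, adjusted p = 0.18 from edgeR and 0.0097 from DESeq2). VBP1, another prefoldin subunit, had a log2 fold change of 0.08. Of 4 tested phosducin-like and other cofactors, which bind TRiC and modulate its cycle, PDCL3 was at 24.9 and 23.8 CPM with HJ-4 and at 20.2 and 19.6 CPM with DMSO (log2 fold change 0.29, adjusted p = 0.27 from edgeR), while PDCL, a cofactor in the folding of G protein beta subunits, had a log2 fold change of -0.24. Of 5 tested genes listed as tubulin folding cofactors, most of which assemble tubulin dimers after TRiC, 4 were negative. The median of the 5 was -0.15. The positive one was TBCEL, a cofactor E-like gene chosen after its values were seen (log2 fold change 0.11, overlapping groups). TBCC was at 19.9 and 19.6 CPM with HJ-4 and at 25.4 and 23.5 CPM with DMSO (log2 fold change -0.31, adjusted p = 0.27 from edgeR). TBCA had a log2 fold change of -0.18. In the prefoldin-like and R2TP module, which shares PFDN2 and PFDN6 with prefoldin, 4 of 8 were positive with a median of 0.01, and PIH1D1, PDRG1 and RUVBL2 had log2 fold changes of -0.32, 0.17 and -0.14. No gene of these 4 lists passed the adjusted threshold in edgeR. Those with an unadjusted p under 0.05 were PFDN2 and PDCL3 with positive and TBCC and PIH1D1 with negative fold changes, beside 15.9% of all genes tested in either direction.

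Of 11 other proteins known as TRiC substrates, 7 genes had negative fold changes, with a median of -0.15. HDAC3, a histone deacetylase assembled with its corepressor by TRiC, had a log2 fold change of -0.35 and FZR1, a WD40 activator of the anaphase-promoting complex, of -0.33 (adjusted p = 0.21 and 0.20 from edgeR). None of the 11 passed the adjusted threshold in edgeR. Of the 11, 3 had an unadjusted p under 0.05 with a negative fold change, as had 7.93% of all genes tested. DESeq2, which called 570 of the 14044 genes tested, also called these 3. HDAC3 and FZR1 are among these and are not the extremes of the list.

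Genes of the heat shock response were spread more widely than the subunits, from -1.11 for HSPA1A to 0.58 for HSP90AA1, chosen after its values were seen, in log2 fold change. HSPA1A and HSPA1B, near-identical inducible Hsp70 genes between which reads may be split, were at 76.3 and 78.9 CPM and at 156 and 156 CPM with HJ-4, against 178 and 158 CPM and 343 and 307 CPM with DMSO. Their log2 fold changes were -1.11 and -1.06 (adjusted p = 0.066 and 0.063 from edgeR, 0.048 and 0.045 with a replicate block, and 1.6e-17 and 3.1e-19 from DESeq2). DNAJB1, an Hsp40 partner of Hsp70, was at 218 and 242 CPM with HJ-4 and at 508 and 454 CPM with DMSO (log2 fold change -1.07). Its adjusted p was 0.079 from edgeR, 0.053 from edgeR with a replicate block and 1.9e-15 from DESeq2. The median over the 16 heat shock factors and targets was -0.09, with 11 negative. None of the 16 passed the adjusted threshold in edgeR, and 4 had an unadjusted p under 0.05, each with a negative fold change, as had 7.93% of all genes tested.

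**Figure D5:**
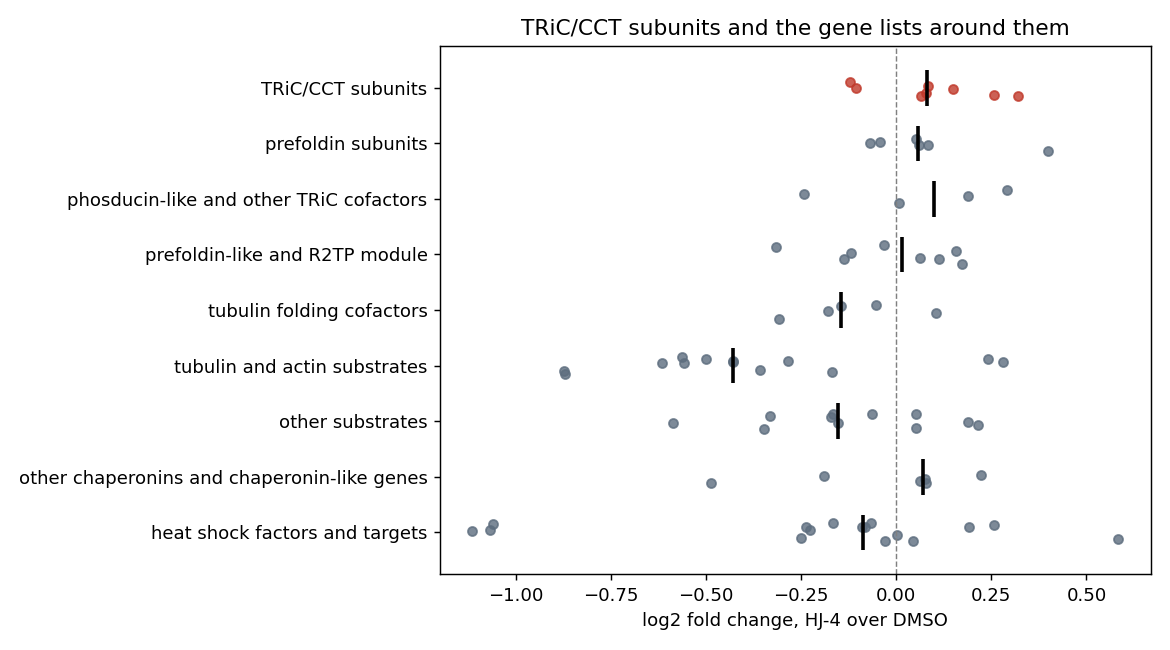
Log2 fold change (HJ-4 over DMSO) of each tested gene in the TRiC/CCT subunits (red) and in 8 lists of partners, substrates and related genes (grey), with vertical bars at list medians and points shifted vertically for visibility. The subunits lie between -0.12 and 0.32 with a median of 0.08, and the tubulin and actin list has a median of -0.43.

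Among 11174 other genes averaging 5 CPM or more, the profiles nearest to the mean subunit profile over the 4 libraries, by Euclidean distance of centred log2 CPM, were those of ATF1, FAM149B1, SEPTIN2, PHF20L1 and PLTP (distances 0.0084 to 0.028). The mean subunit profile was 0.09 and 0.00 in the HJ-4 libraries and -0.13 and 0.04 in the DMSO libraries. With 4 libraries this is a description only.

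The labelled cell type was checked with markers. The epithelial markers EPCAM, KRT8, KRT18 and CDH1 were at 73.5 to 1902 CPM in all libraries. The 3 leukocyte and 2 endothelial markers were at most 0.255 CPM, with CD3E at 0 in all libraries. Of 3 fibroblast markers COL1A2 and DCN were at 0, while COL1A1 was at 58.2 to 62.6 CPM. The summed epithelial markers were at 2688 to 2735 CPM with HJ-4 and at 2491 to 2751 CPM with DMSO.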

How the data were processed

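RNA of HCT116 cells was measured in 4 libraries. The table that the authors deposited holds unnormalized read counts for 20263 Ensembl IDs. According to the study's methods, reads were trimmed with Trimmomatic, aligned to GRCh38 with STAR and counted with featureCounts, whereas HISAT2, RSEM and bedtools appear in the submitters' processing notes. The tool behind the table, its annotation and its strand setting are not given in the sources used here. They can move counts of overlapping or near-identical genes. The methods describe biological triplicates, and 2 libraries per condition were analysed here.

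Symbols, spans and lengths were taken from GENCODE version 44 (20148 IDs matched). TBCE was not matched and was not analysed here. Genes were kept by filterByExpr, scaled by TMM and tested in edgeR 4.0.16 (glmQLFit, glmQLFTest, R 4.3.3) in a model of condition alone, with p-values adjusted by Benjamini-Hochberg over 14044 genes. The study names limma, and edgeR was used because the values are counts. Standard errors were derived from the F statistic and confidence intervals (95%) from the degrees of freedom of the test. The fits were also run on simulated counts with planted changes larger than those fitted for the subunits, so that run does not bear on changes as small as theirs. The alternatives were scaling by total counts or by size factors of DESeq2 (1.42.0), all genes unfiltered, genes averaging 5 CPM or more, the Wald test of DESeq2, limma-voom (limma 3.58.1), a replicate block and the omission of each library. The members and gene lists were chosen with earlier results of these data known. Named genes are the 8 members, the genes with the smallest p of each list (3, or 2 for lists under 8 genes) and the 5 nearest profiles, and genes named outside this rule are marked as chosen after their values were seen. A substrate gene that the rule names is not reported here.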

Additional observations from a re-analysis of the deposited data

How the results depend on the processing

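No TRiC subunit passed an adjusted p of 0.05 under any of the 11 alternatives, and the smallest adjusted p of a subunit was 0.087, for CCT8 without DMSO replicate 2. The number of subunits at an unadjusted p under 0.05 was 0 in all fits except the one without DMSO replicate 2, where it was 2, so that it ranged from 0 to 2 when single libraries were left out. The median log2 fold change of the subunits was 0.05 with total counts and between -0.01 (without DMSO replicate 1) and 0.16 (without DMSO replicate 2) when single libraries were left out. When single libraries were left out, the log2 fold change of CCT2 ranged from -0.0376 to 0.204 and that of CCT8 from -0.0302 to 0.617, with the negative values without DMSO replicate 1 and positive values in all other fits.
Of the partner genes 0 were called by edgeR. DESeq2 called 13, the replicate block 2 (HSPA1A and HSPA1B), and fits leaving out single libraries 0 to 3. Over all genes edgeR called 7, against 12 without a filter, 570 with DESeq2, 31 with the replicate block and 0 to 88 when single libraries were left out (0 without either HJ-4 library, 88 without DMSO replicate 1 and 34 without DMSO replicate 2). The replicate numbers give 2 pairs only, and the correlation of the deviations of same-numbered libraries was -0.06 over genes, so that the block is given for its effect on these counts alone. It changed no call of a subunit. With 2 libraries per condition, differences within the confidence intervals given were not excluded.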

Other observations

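Chaperonins and chaperonin-like genes outside the cytosolic complex had log2 fold changes between -0.49 for BBS12 and 0.22 for BBS10. HSPD1 and HSPE1 encode the mitochondrial chaperonin and its lid. HSPD1 had 739.8 and 651 CPM with HJ-4 and 581 and 751 CPM in the DMSO libraries, with overlapping groups. HSPE1 was at 104 and 103 CPM with HJ-4 and at 116 and 121 CPM with DMSO (log2 fold change -0.19, adjusted p = 0.33 from edgeR), with separate groups. Of the genes related to the cytosolic chaperonin that act in Bardet-Biedl syndrome, BBS10 was at 39.3 and 36.1 CPM with HJ-4 and at 32.9 and 31.8 CPM with DMSO (log2 fold change 0.22, adjusted p = 0.35 from edgeR). MKKS had a log2 fold change of 0.08 and BBS12 of -0.49 with overlapping groups. CCT8L2 had 0 counts in every library and was not tested. None of the 6 tested genes of this list, which also holds CCT6B, passed the adjusted threshold in edgeR, in DESeq2 or in limma-voom. Of these 6, 0 had an unadjusted p under 0.05 in edgeR. HSPD1, MKKS, BBS12 and CCT6B were chosen after their values were seen.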
